A study of Homo sapiens with 6 samples.

Results

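Expression of 10 genes that carry citrate, acetate and acetoacetate carbon into acetyl-CoA, malonyl-CoA and palmitate was examined in BT-549 cells, an established triple negative breast cancer line. The members were SLC25A1, ACLY, ACSS2, ACSS1, AACS, ACACA, ACACB, FASN, OXSM and MCAT. They were chosen by function, matched by symbol to 10 of the 63140 genes listed for each library, and all 10 had enough counts to be tested. Cells labelled WT were grown for 24 h in adipocyte-conditioned medium (ACM, 3 cultures) or unconditioned medium (UCM, 3 cultures), and polyA RNA was sequenced. ACM was collected from OP9 mouse cells differentiating in a medium of insulin, oleate and albumin. The sample labels give ACM at 50%, whereas the study's supplement gives it undiluted for RNA-seq. The formula of UCM is not given in the sources used here, so oleate, insulin and serum cannot be told apart from adipocyte secretions. The study asked how increased lipogenesis, a process it describes as using acetyl-CoA, goes along with changes in gene expression.

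Fatty acids are built in the cytosol. Citrate leaves the mitochondrion through SLC25A1, ACLY cleaves it to acetyl-CoA, acetyl-CoA carboxylase makes malonyl-CoA, and FASN extends the chain to palmitate with NADPH. ACSS2 and AACS feed the same cytosolic pool from acetate and acetoacetate, and histone acetyltransferases draw on acetyl-CoA as well. Many of these genes are known targets of the SREBP transcription factors, whose processing is slowed by sterols and whose lipogenic form is restrained by unsaturated fatty acids. Mitochondria hold a separate fatty acid synthesis pathway, in which MCAT and OXSM act and which supplies the octanoyl chain for lipoate rather than palmitate for membranes.

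Total expected counts, the read estimates that RSEM gives per gene, lay between 17135288 and 21053257 per library. Counts are given below as CPM, counts divided by the library total and edgeR's TMM factor, and levels between genes as TPM, which also divides by effective length. UCM replicates 2 and 3 resembled each other more closely (chi-square of 2.35 per degree of freedom over genes, where 1 is sampling noise) than any other pair of replicates (13.2 to 21.4). UCM replicate 1 was at 21.4 from UCM replicate 2 and 19.9 from UCM replicate 3, and the ACM pairs were at 13.2 to 18.7. The close pair was thus the exception, and UCM replicate 1 was not shown to be an outlier. The changes of members that passed are also given without UCM replicate 1. That fit keeps only the closest pair in UCM, so its adjusted p values rest in part on their small spread. It called 572 genes lower and 738 higher in edgeR, against 320 and 484 with all libraries. The fit with all libraries holds the pair of UCM replicates 2 and 3 as well. Without UCM replicate 2, 70 genes were lower and 125 higher, and without UCM replicate 3, 62 and 156. The label calls the cells epithelial, but the 5 epithelial markers EPCAM, CDH1, KRT8, KRT18 and KRT19 summed to between 1.30 and 2.80 CPM per library, and the 4 mesenchymal markers VIM, FN1, CDH2 and ZEB1 to between 4117 and 4954 CPM. Of 7 adipocyte markers, ADIPOQ, LEP and CIDEC had no count in any library. The 7 together summed to 2.08 to 3.10 CPM in ACM and 1.40 to 1.92 CPM in UCM, of which CFD alone gave 2.08 to 2.99 and 1.34 to 1.92 CPM. The part of these markers in the results was not tested.

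The mRNAs of 4 members that bring carbon to the cytosolic acetyl-CoA pool or handle acetoacetate fell in ACM, whereas those of the carboxylases and of FASN did not pass the test. SLC25A1, ACLY, ACSS2 and AACS were lower at an adjusted p at or below 0.05 (edgeR's quasi-likelihood test with Benjamini-Hochberg adjustment over 14451 genes). With effective length offsets in edgeR, or with limma on TPM, the 4 were reduced to 1 (ACLY). Those 4 of 10 members compare with 2.21% of all genes tested that were lower by the same rule. The members were chosen by function, but with earlier results of these data known. No member was higher by edgeR, against 3.35% of all genes, by DESeq2 or by limma on TPM, and 1 (ACSS1) was higher at an unadjusted p at or below 0.05, against 11.9% of all genes. At that unadjusted threshold 5 members were lower, FASN in addition to the 4, against 11.5%. The study's cut-offs, a p of at most 0.05 and an absolute log2 FC of at least 0.58, were applied to the edgeR fit. The study does not say whether its p was adjusted, and it was taken here as unadjusted. By them ACSS2 and AACS were lower and no member was higher, against 1.71% and 4.12% of all genes. The study's own gene lists were not used. The median log2 FC was -0.27 over the members and -0.01 over all genes tested. In 5 members all 3 ACM values of CPM lay below all 3 UCM values, which held for 15.1% of all genes, and in 1 member they lay above, which held for 13.9%. In bulk RNA, fewer cells expressing a gene and less RNA per cell cannot be told apart.

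**Figure D1:**
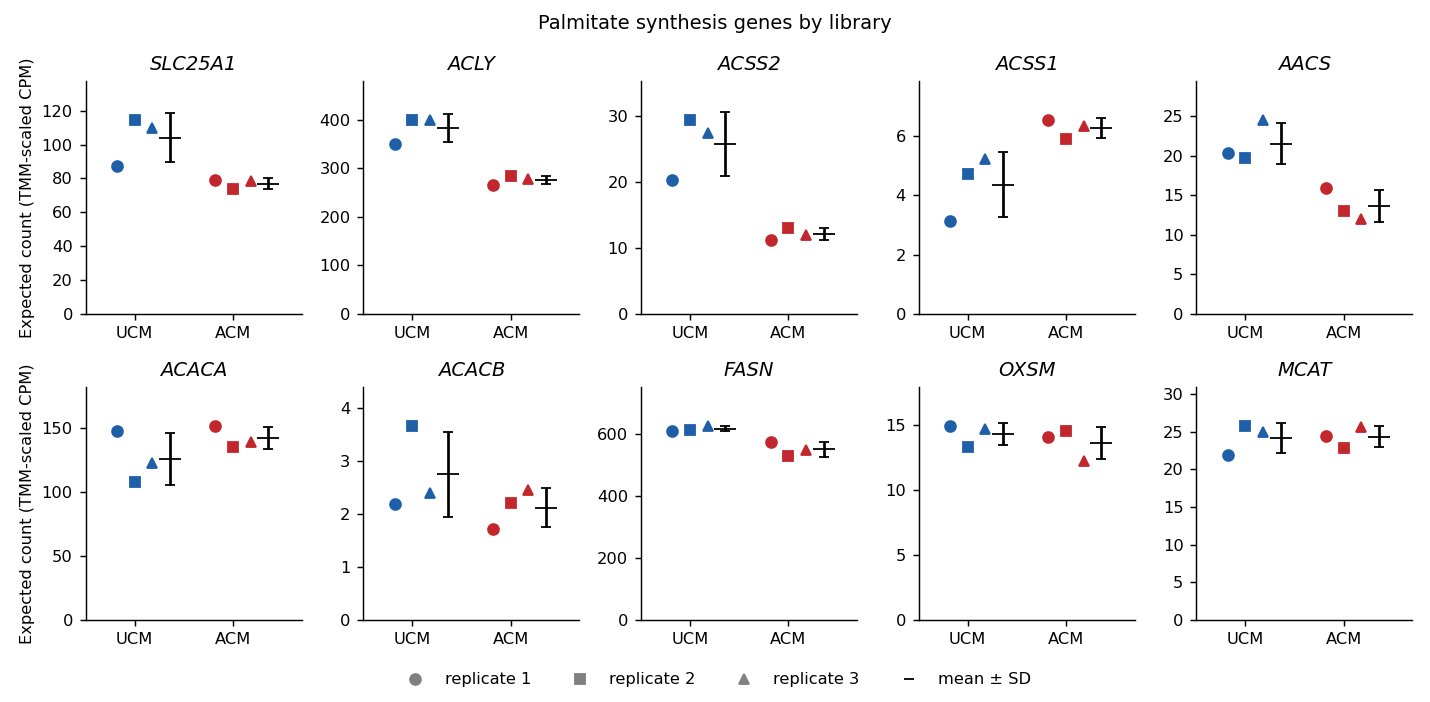
TMM-scaled CPM of each member (vertical axis, from 0) in the 3 UCM (blue) and 3 ACM (red) libraries, with the mean ± SD in black. SLC25A1, ACLY, ACSS2, AACS and FASN are lower in every ACM library than in any UCM library and ACSS1 is higher, while the other members overlap.

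The start regions of the members that fell together are shown because these members moved in the same direction. RefSeq windows (GRCh38.p14) from 250 bases before to 50 bases after a start site were found for 8 of the 10 members, all but FASN and OXSM, and the window nearest to the start of the canonical transcript in GENCODE 44 was taken. Capitals mark the GC box GGGCGG and the CCAAT box CCAAT on either strand.
SLC25A1, chr22:19178687-19178986, minus strand: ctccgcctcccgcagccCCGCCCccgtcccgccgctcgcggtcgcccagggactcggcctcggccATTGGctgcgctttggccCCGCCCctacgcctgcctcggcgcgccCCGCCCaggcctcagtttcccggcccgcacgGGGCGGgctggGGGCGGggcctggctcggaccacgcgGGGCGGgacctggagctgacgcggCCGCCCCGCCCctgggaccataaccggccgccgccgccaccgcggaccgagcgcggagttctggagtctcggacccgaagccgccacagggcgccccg
ACLY, chr17:41918902-41919201, minus strand: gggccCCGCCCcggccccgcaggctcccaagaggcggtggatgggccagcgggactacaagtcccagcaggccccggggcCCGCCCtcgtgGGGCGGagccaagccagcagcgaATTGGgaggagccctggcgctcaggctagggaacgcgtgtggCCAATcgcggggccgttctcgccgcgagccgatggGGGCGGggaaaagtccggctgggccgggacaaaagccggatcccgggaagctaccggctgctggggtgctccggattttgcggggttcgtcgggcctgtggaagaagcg
ACSS2, chr20:34876362-34876661, plus strand: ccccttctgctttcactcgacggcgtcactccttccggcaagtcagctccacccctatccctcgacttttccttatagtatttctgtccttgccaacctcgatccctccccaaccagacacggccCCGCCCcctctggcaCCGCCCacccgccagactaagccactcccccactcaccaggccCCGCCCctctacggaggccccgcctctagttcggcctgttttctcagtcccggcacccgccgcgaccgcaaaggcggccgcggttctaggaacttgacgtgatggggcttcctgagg
AACS, chr12:125065185-125065484, plus strand: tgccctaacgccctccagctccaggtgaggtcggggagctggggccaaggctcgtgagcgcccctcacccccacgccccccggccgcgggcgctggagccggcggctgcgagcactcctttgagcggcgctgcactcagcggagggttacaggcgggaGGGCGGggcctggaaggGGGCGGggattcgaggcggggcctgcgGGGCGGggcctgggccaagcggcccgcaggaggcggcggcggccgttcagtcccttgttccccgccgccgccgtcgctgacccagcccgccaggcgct

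GC boxes stood in 7 of the 8 member windows, and 45% of all 35116 windows held at least 1. The window of SLC25A1 held 8, of which the last 2 overlap by 1 base, that of ACLY 4, and those of ACSS2 and AACS 3 each. CCAAT stood in 2 of the 8 windows, those of ACLY and SLC25A1, and in 34.6% of all windows. The sterol regulatory element in its form TCACNCCAC was found on neither strand of any of the 8, and was in 1.13% of all windows, and the E-box CACGTG was also found in none of them, against 7.26%. Of the windows not taken, those of ACLY, ACSS2, ACACA and ACACB held CCAAT, while those of ACSS1 and MCAT did not. These counts describe the letters of short windows and do not measure binding. Of the members with a window that did not pass as lower, ACACA had 6 GC boxes, ACSS1 had 4 and MCAT had 1. The window of ACACB held no GC box. The 7 windows with a GC box were 62.3% to 82.3% G and C, and that of ACACB was 46.0%. The GC boxes of ACACA that begin at -151, -147, -143 and -139 from the start site overlap in a single run.

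SLC25A1 encodes the carrier that exports citrate from mitochondria, and lies on the minus strand of chromosome 22 from 19175581 to 19178739 (GRCh38, GENCODE 44), with 9 exons in its canonical transcript. Its expression was 78.9, 73.5 and 78.5 CPM in ACM replicates 1, 2 and 3 and 87.6, 115 and 110 CPM in UCM. All ACM values were below UCM, and UCM replicate 1 was the nearest to them. The log2 FC was -0.43 (standard error, SE, 0.10, edgeR adjusted p = 0.0340), so that the level fell by 26.0%. It was -0.54 without UCM replicate 1 (adjusted p = 0.0013), but the adjusted p was between 0.0682 and 0.150 without any single one of the other 5 libraries. It was 0.0746 with effective length offsets and 0.0645 to 0.0668 with limma on TPM.

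ACLY, ATP citrate lyase, splits the exported citrate into acetyl-CoA and oxaloacetate. It lies on the minus strand of chromosome 17 from 41866917 to 41930542, with 29 exons. The 3 ACM libraries had 267, 284 and 277 CPM, and the 3 UCM libraries 349, 400 and 399 CPM. Here the groups were apart by more than the spread within either of them, with means of 276 ± 8.71 CPM in ACM against 383 ± 29.1 in UCM (SD, n = 3 each). The log2 FC was -0.47 (SE 0.07, edgeR adjusted p = 0.0068), so that it fell by 28.0%. Without UCM replicate 1 it was -0.53 (adjusted p = 0.0010). ACLY was the only member called under all of the 14 other settings tried, with a log2 FC between -0.53 and -0.43. Its adjusted p was 0.0515 in 1 alternative added after seeing the data, with effective length offsets and without ACM replicate 2.

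ACSS2 ligates acetate to CoA in the cytosol and nucleus, and lies on the plus strand of chromosome 20 from 34872146 to 34927962, with 18 exons in the canonical transcript and 24 transcripts listed. By counts it had the largest change of the members, with 11.2, 13.0 and 11.9 CPM in ACM and 20.2, 29.4 and 27.4 CPM in UCM. The highest ACM library was well below the lowest UCM library. The log2 FC was -1.09 (SE 0.15, edgeR adjusted p = 0.0038), which is 0.469 times the UCM level. It was -1.23 without UCM replicate 1 (adjusted p = 1.33e-04) and between -1.23 and -0.99 when single libraries were left out. The TPM values did not separate the groups in the same way, with 8.74, 19.7 and 10.5 in ACM and 16.2, 19.3 and 19.0 in UCM. ACM replicate 2 was the highest of all 6 libraries by TPM although its count of 230 lay between the 236 and 219 of the other ACM libraries.

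ACSS1 catalyses the same reaction as ACSS2 inside mitochondria. It lies on the minus strand of chromosome 20 from 25006230 to 25058980, with 14 exons. ACSS1 was at 6.56, 5.91 and 6.36 CPM in ACM and 3.13, 4.73 and 5.25 CPM in UCM. Its ACM values were all above UCM, opposite to ACSS2, but the lowest UCM value was that of replicate 1. The log2 FC of 0.53 (SE 0.21, edgeR unadjusted p = 0.0313 and adjusted p = 0.167) did not pass, and it was 0.34 without UCM replicate 1 (adjusted p = 0.276). ACSS2 counts were 1.71, 2.19 and 1.87 times those of ACSS1 in the ACM libraries and 6.47, 6.21 and 5.22 times in UCM. On the log2 scale this ratio differed by -1.63 in ACM, a description of a pair chosen after the values were seen. In TPM, ACSS2 made up 75.9%, 88.8% and 78.9% of the sum with ACSS1 in ACM and 91.7%, 90.8% and 88.6% in UCM, so that these shares overlapped through ACM replicate 2.

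AACS activates acetoacetate, a ketone body, to acetoacetyl-CoA in the cytosol. It lies on the plus strand of chromosome 12 from 125065434 to 125143333, with 18 exons. AACS was at 16.0, 13.0 and 12.01 CPM in ACM and at 20.3, 19.7 and 24.5 CPM in UCM, with no overlap. The log2 FC was -0.65 (SE 0.14, edgeR adjusted p = 0.0254), so that it fell by 36.4%. Without UCM replicate 1 it was -0.68 (adjusted p = 0.0175), and without any 1 of ACM replicates 2 and 3 and UCM replicates 2 and 3 the adjusted p rose to between 0.0641 and 0.120. With effective length offsets or limma on TPM it was 0.104 to 0.108.

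ACACA and ACACB encode the forms of acetyl-CoA carboxylase, the enzyme that makes malonyl-CoA. ACACA is the lipogenic form in the cytosol, and ACACB is tied to the mitochondrial surface, where malonyl-CoA restrains fatty acid oxidation. ACACA, on the minus strand of chromosome 17 from 37084992 to 37406836 with 56 exons, was at 152, 135 and 139 CPM in ACM and 148, 107 and 123 CPM in UCM. The groups overlapped through UCM replicate 1. Its log2 FC was 0.17 (SE 0.11, edgeR adjusted p = 0.392), and 0.31 without UCM replicate 1, when it passed the test as higher in ACM (adjusted p = 0.0363). It also passed without replicate 1 of both conditions (log2 FC of 0.27, adjusted p = 0.0491), an alternative added after seeing the data. ACACB, on the plus strand of chromosome 12 from 109116587 to 109268226 with 53 exons, was covered by 36, 39 and 45 counts in ACM, and by 46, 68 and 41 in UCM. These low counts gave a log2 FC of -0.37 with a standard error of 0.29 (adjusted p = 0.491 from edgeR), wider than for any other member. ACACA made up 95.5% to 97.2% of the TPM of the pair in ACM and 89.7% to 97.5% in UCM.

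FASN, on the minus strand of chromosome 17 from 82078338 to 82098294 with 43 exons, encodes the multifunctional synthase that releases palmitate. Its values were 575, 527 and 548 CPM in ACM and 610, 614 and 625 CPM in UCM. All ACM values lay below UCM, by a small margin. The log2 FC was -0.16 (SE 0.06, edgeR unadjusted p = 0.0288 and adjusted p = 0.161), a change of -10.8% that did not pass the adjusted test. The adjusted p of FASN was between 0.0835 and 0.470 over the same 14 settings. ACLY counts were 0.464, 0.538 and 0.506 times those of FASN in ACM and 0.572, 0.652 and 0.638 times in UCM, a difference of -0.31 on the log2 scale. Against ACACA, ACLY counts were 1.76, 2.10 and 1.997 times as high in ACM and 2.36, 3.73 and 3.25 times in UCM, a difference of -0.65. FASN counts were 3.80, 3.90 and 3.95 times those of ACACA in ACM and 4.13, 5.72 and 5.10 times in UCM, a difference of -0.35. All of these ratios were lower in every ACM library than in any UCM library, whereas that of ACLY to ACSS2 was higher, by 0.61 on the log2 scale. The ratios were chosen after the values were seen. An exact permutation test over libraries gave p = 0.1 for each, the smallest value possible with 3 against 3 libraries, so it could not separate them.

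**Figure D2:**
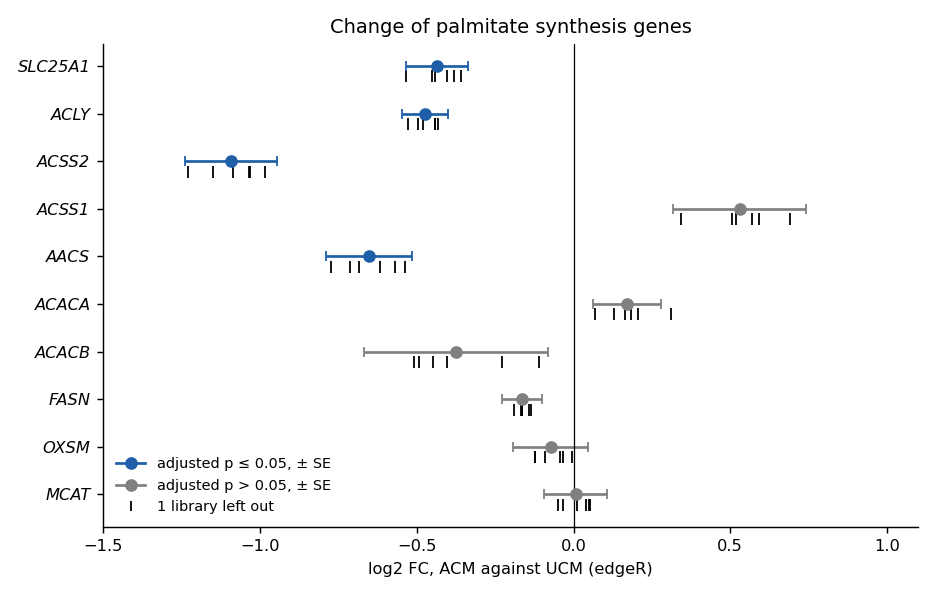
The log2 FC of each member in ACM against UCM (horizontal axis) with its standard error from edgeR, in blue where the adjusted p was at or below 0.05, and ticks for the values with 1 of the 6 libraries left out. SLC25A1, ACLY, ACSS2 and AACS stay below 0 in every case, and only the ticks of MCAT lie on both sides of 0.

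MCAT and OXSM belong to the mitochondrial pathway, where MCAT loads malonyl groups onto the acyl carrier protein and OXSM condenses them into the growing chain. MCAT, on the minus strand of chromosome 22 from 43132209 to 43143398 with 4 exons, was at 24.5, 22.8 and 25.6 CPM in ACM and 21.9, 25.8 and 24.9 CPM in UCM. OXSM, on the plus strand of chromosome 3 from 25782917 to 25794534 with 3 exons, was at 14.1, 14.5 and 12.2 CPM in ACM and 14.9, 13.3 and 14.7 CPM in UCM. The groups overlapped for both genes, with a log2 FC of 0.01 for MCAT (standard error 0.10) and -0.07 for OXSM (standard error 0.12), and neither passed the test (adjusted p = 0.975 and 0.770 from edgeR). The sign of MCAT turned when ACM replicate 3 or UCM replicate 1 was left out. An exon of OXSM overlaps NGLY1 on the opposite strand by 364 bases, and since no source used here says that the libraries kept strand, reads from that stretch could belong to either gene.

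By level per length, the pathway was not evenly expressed. In UCM, ACLY had 143 ± 9.14 TPM, FASN 130 ± 4.26 TPM and SLC25A1 122 ± 16.1 TPM (SD, n = 3 each), and the ranges of neighbours in that order overlapped. MCAT and ACACA followed with 29.5 ± 3.46 and 26.1 ± 4.83 TPM, which also overlapped. ACSS2 with 18.1 ± 1.699 TPM and OXSM with 17.6 ± 1.59 TPM did not differ beyond their spread, AACS stood at 10.8 ± 1.44 TPM, and ACSS1 and ACACB closed the order with 1.95 ± 0.49 and 1.83 ± 1.05 TPM. In ACM the order began with FASN, at 112 ± 11.3 TPM, whose range overlapped that of ACLY at 102 ± 1.98 TPM. SLC25A1 came next at 89.3 ± 5.61 TPM, below ACLY in every library.

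Effective length, which RSEM computes for each library as a mean over transcripts weighted by their estimated abundance, varied widely for ACSS2. It was 1816, 911 and 1633 bases in ACM and 1813, 2150 and 2072 bases in UCM. The length of ACM replicate 2 was far below the others, and TPM divides by this length. With effective lengths as offsets in edgeR, the log2 FC of ACSS2 was -0.48 (adjusted p = 0.398), and limma on log2 TPM with 1 added gave -0.53 (adjusted p = 0.284). AACS then had the larger change, -0.60 and -0.57, and ACACB -0.65 with the offsets, none of them past the test. With the offsets and without ACM replicate 2, an alternative added after seeing the data, ACSS2 had -0.91 (adjusted p = 0.0486). ACACB varied even more, from 1383 bases in UCM replicate 1 to 5425 bases in UCM replicate 3, on 36 to 68 counts per library. The longest effective length was 3.92 times the shortest for ACACB and 2.36 times for ACSS2, and 1.02 to 1.18 times for the other 8 members, where the median over all genes tested was 1.13 and 6.35% of genes reached 2. In none of the 10 members were the effective lengths of the groups apart, which held for 9.19% of all genes.

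**Figure D3:**
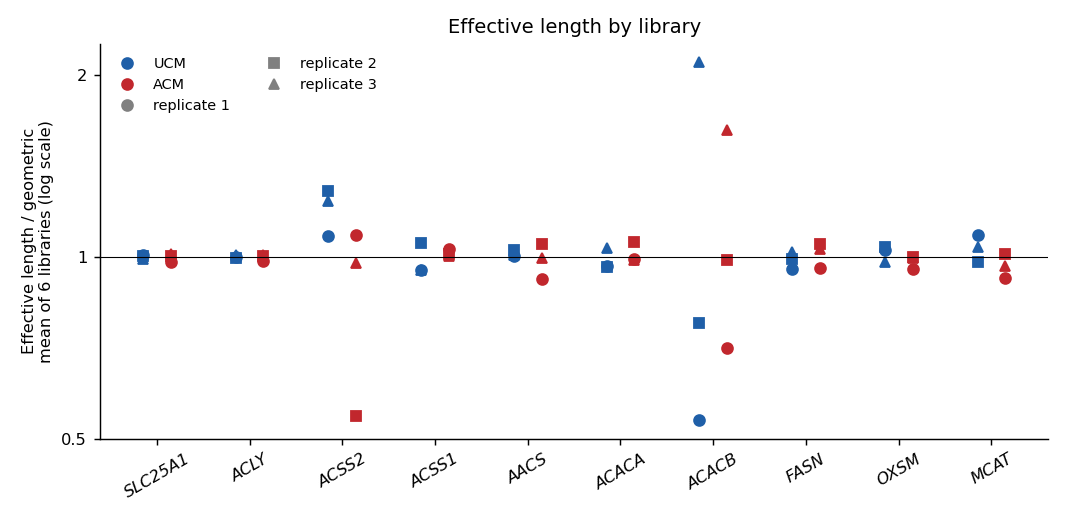
Effective length of each member divided by the geometric mean of its 6 libraries (vertical axis, log scale), in UCM (blue) and ACM (red). ACSS2 in ACM replicate 2 and ACACB across libraries stand away from 1, and the other members stay within a narrow band.

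Neighbouring genes were taken from 6 lists of 68 genes around the pathway, typed by hand, of which 60 were tested. Among these, 8 were lower and 2 were higher at the adjusted p, against 2.21% and 3.35% of all genes, with a median log2 FC of -0.08. The list of 14 genes for transcriptional control of lipogenesis held 13 tested genes, 2 of which were lower. One was SREBF2, the gene of the SREBP form tied to sterol synthesis, which fell from 229 ± 11.03 CPM in UCM to 150 ± 14.9 CPM in ACM (log2 FC of -0.61, SE 0.08, edgeR adjusted p = 0.0038). The other was INSIG1, which holds SREBP in the endoplasmic reticulum and is itself an SREBP target, with a log2 FC of -1.87 (adjusted p = 0.0030). SREBF1, the gene of the form tied to fatty acid synthesis, was at 192, 187 and 178 CPM in ACM and 163, 151 and 157 CPM in UCM. All ACM values of SREBF1 were higher, but the log2 FC of 0.24 missed the adjusted threshold (adjusted p = 0.0583). It passed in 5 of the 14 other settings, among them DESeq2 (adjusted p = 0.0212) and edgeR without UCM replicate 1 (adjusted p = 0.0275), and ranged up to an adjusted p of 0.415. MLXIPL, the gene of the carbohydrate-responsive factor ChREBP, had no count in any library.

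None of the 9 tested genes that control acetyl-CoA carboxylase, mainly subunits of the AMP-activated kinase and enzymes of biotin and malonyl-CoA handling, and none of the 9 further genes of mitochondrial fatty acid synthesis, passed the adjusted test in edgeR. At an unadjusted p, 1 was higher and 1 was lower in the former and 1 was lower in the latter, against 11.9% of all genes higher and 11.5% lower. DESeq2 and limma on TPM called none on these lists either, whereas edgeR with a filter of at least 1 count in total called 1 gene of carboxylase control higher, MID1IP1. Among 10 genes that supply citrate and NADPH, IDH1 (log2 FC of -1.14, adjusted p = 0.0019) and CS, citrate synthase (log2 FC of -0.29, adjusted p = 0.0496), were lower. IDH1 was called in all of the 14 other settings, but CS in only 4 of them, with adjusted p values of 0.0100 to 0.221. SLC13A5, a citrate importer of the plasma membrane, was higher with 23, 22 and 11 counts in ACM against 1, 2 and 1 in UCM (adjusted p = 0.0100 from edgeR). It passed the filter on low counts through ACM, where it is high, and was called in 8 of the 14 other settings. It was left untested by a filter of 10 counts in every library, DESeq2 gave it no adjusted p, and it did not pass with offsets, with either limma fit or without UCM replicate 3. Among 7 tested genes of acetoacetate and ketone body handling, ACAT2 and HMGCS1, which make acetoacetyl-CoA and HMG-CoA in the cytosol, were lower with a log2 FC of -1.49 and -2.11. These act in sterol synthesis, and the ketone body genes OXCT1, BDH1 and BDH2 did not pass.

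Downstream of FASN, 12 genes that elongate, desaturate or activate fatty acids, palmitate among them, were tested. SCD, which desaturates stearate and palmitate, fell from 969 ± 129 CPM to 420 ± 59.1 CPM (log2 FC of -1.21, adjusted p = 0.0023 from edgeR), and FADS2 had a log2 FC of -0.84 (adjusted p = 0.0119). ELOVL6, which elongates palmitate to stearate, was at 50.1, 71.5 and 60.7 CPM in ACM and 34.4, 36.2 and 39.4 CPM in UCM. It was the only gene on that list that was higher at the adjusted p (log2 FC of 0.73, SE 0.12, edgeR adjusted p = 0.0126). The call of ELOVL6 was lost without UCM replicate 2 (adjusted p = 0.0668) and held in the other 13 settings. The other tested elongases, ELOVL1, ELOVL5 and ELOVL7, and the desaturases SCD5 and FADS1, did not pass in edgeR with all libraries. FADS1 had an edgeR adjusted p of 0.0870. The list held 3 lower genes instead of 2 with DESeq2 and with the filter of at least 1 count in total. The same held with a block for replicate number and without UCM replicate 1.

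**Figure D4:**
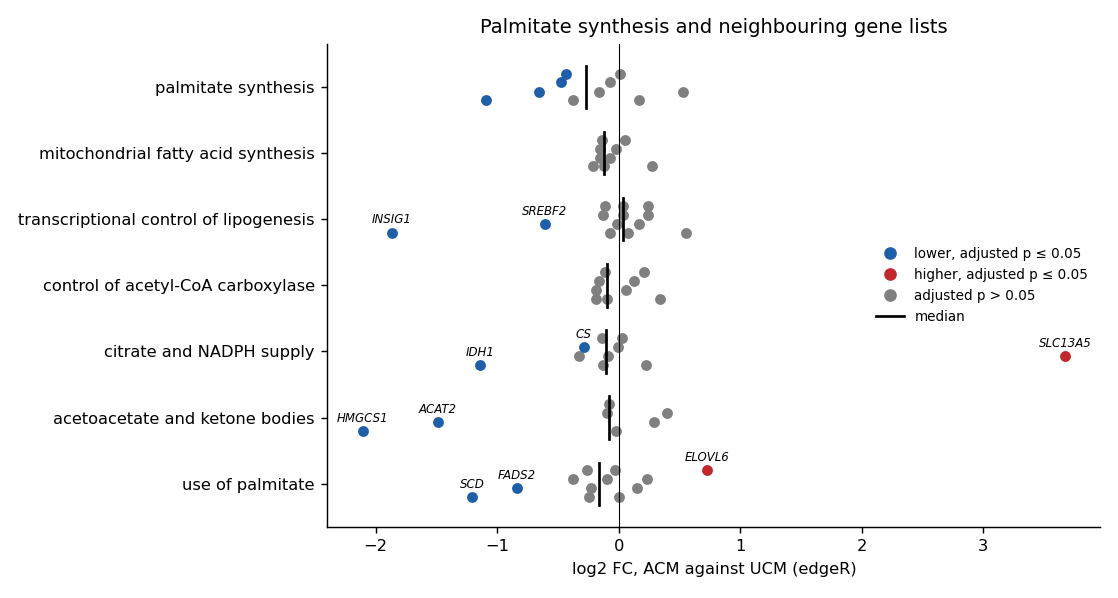
The log2 FC in ACM against UCM from edgeR (horizontal axis) of the members and of each neighbouring gene, 1 point per tested gene by list, coloured where the adjusted p was at or below 0.05, with the median of each list as a black line. The median of the members lies at -0.27, and those of the other lists between -0.16 and 0.03.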

How the data were processed

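Polyadenylated RNA of 6 BT-549 cultures was sequenced as paired ends. The authors used Trim Galore for trimming, STAR for alignment (GRCh38) and RSEM for quantification, versions and gene annotation not given in the sources used here. The authors deposited for each library and gene an expected count (not scaled for depth), a TPM value (scaled by effective length and library) and an effective length in bases as a further value. A further deposited table of the authors' own DESeq2 fold changes and p-values was not used. Symbols were matched by identifier and version to GENCODE 44 for 61547 of 63140 genes. Of the 60 expected counts of the members, 59 were whole within 0.005.

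Expected counts were rounded and tested with edgeR 4.0.16 in R 4.3.3 (TMM, filterByExpr, robust quasi-likelihood, Benjamini-Hochberg adjustment), and also with DESeq2 1.42.0 and limma 3.58.1 (log2 of TPM plus 1 or 0.1). The coefficient of biological variation was 0.115, and the fit was tested on simulated data. No source states that cultures were independent beyond their wells, so p-values measure the spread between these samples. Members, lists and tests were chosen with earlier results of these data known. The 10 members, up to 3 called genes per list with the smallest p, SREBF1 and SREBF2, and the markers could be named. MLXIPL, MID1IP1, 3 ketone body genes and 5 elongases and desaturases were named after their values were seen. The 5 count ratios were chosen after the values were seen.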

Additional observations from a re-analysis of the deposited data

How the results depend on the processing

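ACLY kept its call under all 14 settings set out at the start, ACSS2 under 11, AACS under 7 and SLC25A1 under 6, all with the same sign. With effective length offsets in edgeR, and with limma on log2(TPM + 1) or log2(TPM + 0.1), 1 member was lower (ACLY) and 1 neighbouring gene was higher. Over all genes, 134 were then lower and 272 higher with offsets, 132 and 230 with 1 added, and 138 and 234 with 0.1 added. DESeq2 called 764 genes higher. A filter of at least 1 count in total gave 679 lower and 1045 higher, with 5 neighbouring genes higher. With single libraries left out, 62 to 572 genes were lower and 125 to 738 higher, 2 to 4 members were lower, 0 to 1 higher (ACACA, without UCM replicate 1), and 1 to 3 neighbouring genes were higher. The log2 FC of MCAT ranged from -0.051 to 0.054 in these fits, and was -0.03 without ACM replicate 3 and -0.051 without UCM replicate 1. Chosen after seeing the data, offsets without ACM replicate 2 gave 36 lower and 92 higher genes, 1 member lower (ACSS2) and 1 neighbouring gene higher. Leaving out replicate 1 of both conditions, also added, gave 726 lower and 1017 higher genes, 1 member higher (ACACA) and a log2 FC of -0.052 for MCAT. The cause of these differences was not tested.

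The replicate numbers were not taken as pairs. Deviations of same-numbered samples correlated at 0.318, 0.0347 and 0.177. ACM replicate 1 correlated at -0.223 and -0.156 with UCM replicates 2 and 3. ACM replicate 2 correlated at -0.0146 and -0.0168 with UCM replicates 1 and 3. ACM replicate 3 correlated at -0.314 with UCM replicate 1 and at 0.196 with UCM replicate 2. As UCM replicates 2 and 3 were the closest pair, that last value cannot decide on pairing. With the replicate block, 703 genes were lower and 909 higher, and 4 members were lower and 0 higher. ACACB, on 36 to 68 counts per library, was the member most limited by depth.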
